A study of Rattus norvegicus with 21 samples.

Results

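The genes described here encode proteins of the complement and coagulation systems, most of which the liver makes and releases into the blood. A list of 40 rat genes was followed, and 37 of them have at least 1 probe set on the array, 47 probe sets in all. For 34 genes a probe set names that gene alone, and these 34 carry the counts below. Of the other 6, F7, F11 and F13b are not analysed here, C2 and Cfb share their probe sets with each other, and Kng1 shares its own with related kininogen genes. The whole array gave 31042 tested probe sets and 14217 genes.

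Complement is a cascade of plasma proteases and binding proteins that marks particles for uptake and can end in a pore through a membrane. It starts through lectins that bind sugars, through C1, or through the alternative route, and all routes meet at C3. Coagulation is another protease cascade, which turns prothrombin into thrombin and fibrinogen into fibrin. It is held back by inhibitors such as antithrombin, and plasmin later dissolves the clot.

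The liver RNA came from male rats of the Harlan Sprague-Dawley stock. The agent was tert-Butylphenyl Diphenyl Phosphate (BPDP), an organophosphate ester with aryl groups. All groups received corn oil by gavage once a day for 4 days, and the liver was taken on day 5. The vehicle group had corn oil alone, and the 5 dosed groups had 64.6, 129.2, 258.1, 516.2 or 1032.5 mg/kg of BPDP, which is 0.169 to 2.7 mmol/kg. Each dosed group has 3 arrays and the vehicle group 6, although the treatment protocol speaks of 5 vehicle rats. The labels name no transgene or deletion and do not state the age of the rats. The labels do not say that arrays within a group are separate animals, so the p-values measure the spread between arrays.

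Values are log2 signals, on which a difference of 1 is a factor of 2. Array medians lay between 6.30 and 6.39, and the correlation of any array with another was 0.984 to 0.995. All 11 measured hepatocyte markers lay above the lower quartile of the arrays, under which a gene is called dim. The measured Kupffer, stellate and endothelial cell markers all did so too, so this check does not single out hepatocytes. Vehicle replicate 6 correlated least with its group (mean r = 0.989, the others 0.993), and without it the calls at 1032.5 mg/kg still numbered 11 and those at 516.2 mg/kg 4. In whole liver, fewer cells of a type and less RNA per cell cannot be told apart. A gene was called when limma gave an adjusted p under 0.05, with Benjamini-Hochberg adjustment over all probe sets. "Rose" and "fell" are used of called genes alone.

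The mean of the 34 genes lay lower on the arrays of the 3 highest doses than on those of the vehicle group. Set against the vehicle group, it was -0.05 to 0.02 log2 units on the 6 vehicle arrays, with an SD of 0.03. At 64.6 mg/kg the 3 arrays stood at -0.07, 0.02 and 0.04, around the vehicle level. At 129.2 mg/kg they stood at -0.12, -0.03 and -0.02, which still overlapped the vehicle arrays. At 258.1 mg/kg the values were -0.16, -0.16 and -0.10, with a mean of -0.14 ± 0.03 (SD, n = 3). At 516.2 mg/kg they were -0.22, -0.18 and -0.17, with a mean of -0.19 ± 0.03. At 1032.5 mg/kg they were -0.26, -0.24 and -0.14, with a mean of -0.22 ± 0.06. All 9 arrays of these 3 doses lay below all 6 vehicle arrays, and the spreads of the neighbouring doses 516.2 and 1032.5 mg/kg overlapped. The median change of a member was -0.13 at 516.2 mg/kg and -0.19 at 1032.5 mg/kg. Over all 14217 genes it was 0.00 and -0.01, and over the 2777 genes at least as bright as the dimmest member it was 0.08 and 0.02.

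**Figure D1:**
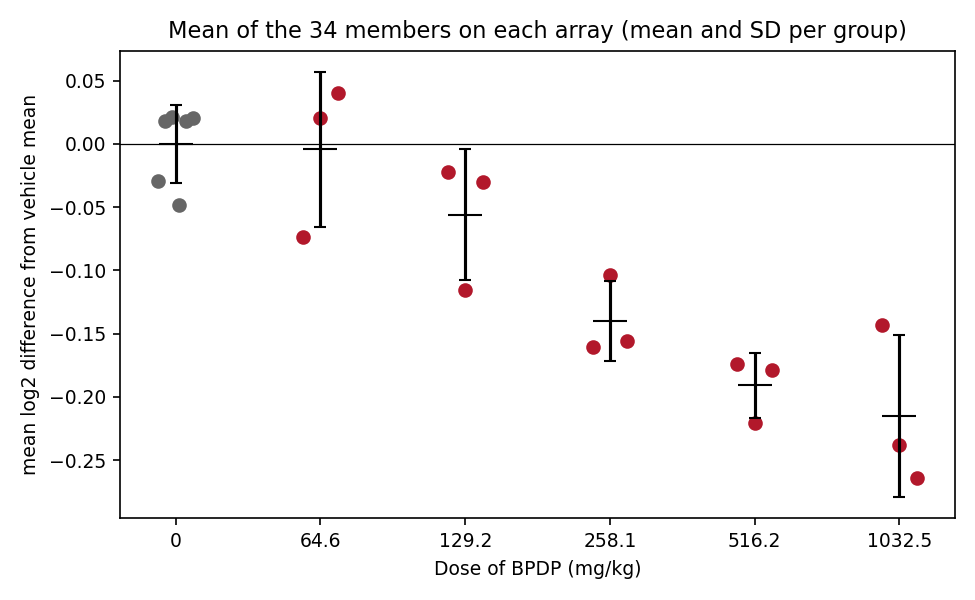
Mean over the 34 genes on each array (points), as the log2 difference from the vehicle mean, against the dose of BPDP in mg/kg; bars are the group mean and SD. The arrays at 258.1 mg/kg and above lie between -0.26 and -0.10, below the lowest vehicle array at -0.05.

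At 64.6 and 129.2 mg/kg limma called 0 of the 34 genes, where 0.387% and 0.521% of all genes were called. At an unadjusted p under 0.05 the members numbered 3 and 4, near the 9.32% and 9.11% of all genes that passed it. At 516.2 and 1032.5 mg/kg 16 and 20 members passed it, against 27% and 23.3% of all genes. At 258.1 mg/kg 2 members fell (Masp1 and Serpind1), against 1.33% of all genes that fell. At 516.2 mg/kg 5 members fell (C1s, Mbl2, Masp1, Cfi and Serpind1) and 0 rose, against 2.64% and 6.30% of all genes. At 1032.5 mg/kg 10 members fell and 1 rose, against 4.14% and 4.81% of all genes. The bright genes give a closer background, because the members are bright: 4.00% of them fell at 516.2 mg/kg and 7.60% at 1032.5 mg/kg. The 10 that fell at the top dose were C1s, Mbl2, Masp1, C8a, C8b, C8g, F10, F12, Serpind1 and Serpinf2, and the 1 that rose was Pros1. Without replicate 2 of the top dose 5 members were called there, and without replicate 3 it was 6. With the replicate number taken as a block, C8a, C8b, C8g, F10, F12 and Pros1 lost their top-dose call. No dosed array carries the numbers of vehicle replicates 4, 5 and 6, so these arrays added nothing to that fit. The lost calls thus also reflect a smaller vehicle group. At 516.2 mg/kg 1 member was called without replicate 1 of that dose and 3 without replicate 3.

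All arrays of a dose lay below all vehicle arrays for 6 members at 258.1 mg/kg, 12 at 516.2 mg/kg and 14 at 1032.5 mg/kg. Those are 17.6%, 35.3% and 41.2% of the members, against 3.52%, 5.25% and 7.08% of all genes. The opposite, all arrays of a dose above the vehicle arrays, held for 1 member at each of these doses, against 5.66%, 8.97% and 6.89% of all genes. Member means lay below the vehicle mean for 13 of 34 genes at 64.6 mg/kg, 21 at 129.2 mg/kg, 27 at 258.1 mg/kg, 28 at 516.2 mg/kg and 29 at 1032.5 mg/kg. Of all 14217 genes 7223, 7416, 6920, 7053 and 7576 lay below it at these doses.

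**Figure D2:**
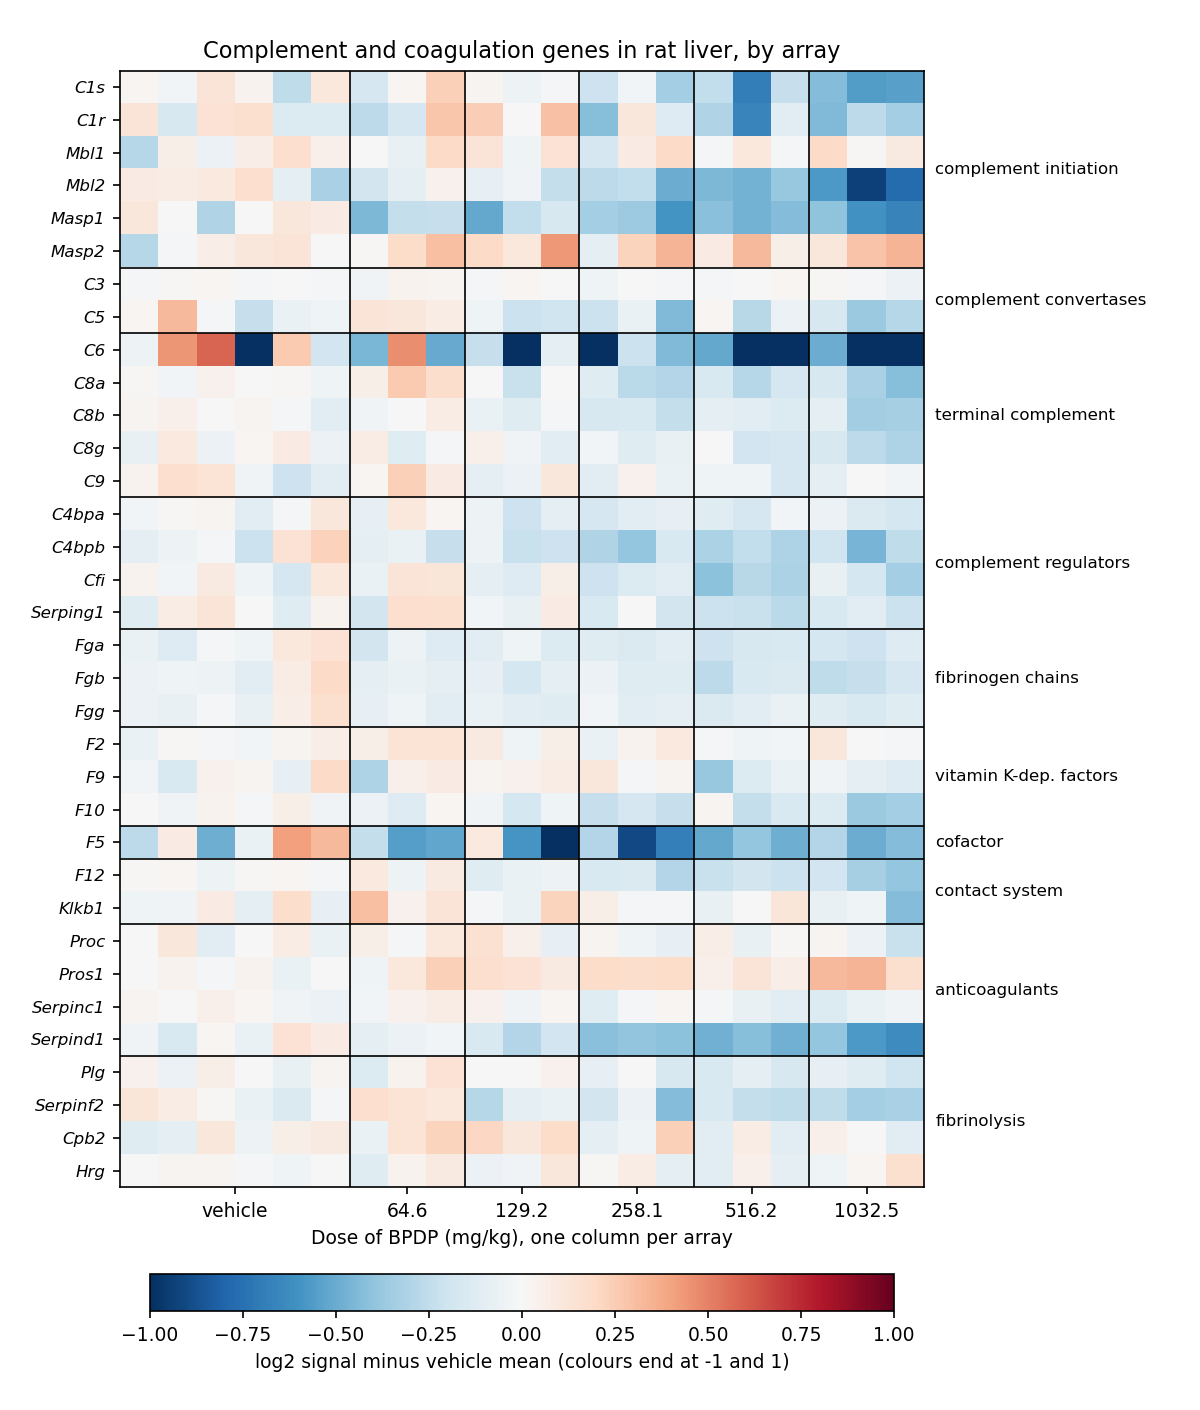
Log2 signal minus the vehicle mean (colour, ending at -1 and 1) for the 34 genes, 1 row each and grouped by role, on the 21 arrays ordered by dose in mg/kg. Blue fills most rows of the upper complement groups and the Serpind1 row from 258.1 mg/kg on, whereas the C3 row stays near white on all arrays.

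The starting proteins of complement held the 2 members with the largest called changes, Mbl2 and Masp1. Of 6 genes 3 fell at 1032.5 mg/kg, against 4.14% of all genes, and the median change over the group was -0.43. Mbl2 encodes mannose-binding lectin C, which binds sugars on microbes. Its vehicle arrays had a lowest, median and highest log2 signal of 12.79, 13.20 and 13.29. The arrays read 12.94, 13.03 and 13.16 at 64.6 mg/kg, 13.04, 13.09 and 12.88 at 129.2 mg/kg and 12.86, 12.87 and 12.62 at 258.1 mg/kg. They read 12.67, 12.65 and 12.75 at 516.2 mg/kg and 12.55, 12.19 and 12.35 at 1032.5 mg/kg. Both of these doses lay wholly below the vehicle range, and the top dose lay wholly below 516.2 mg/kg as well. The log2 change was -0.43 (SE 0.10, adjusted p = 0.017) and then -0.76 (SE 0.10, adjusted p = 8.96e-05), to 59.1% of the vehicle level. The call at 516.2 mg/kg was lost without replicate 1 of that dose (adjusted p = 0.0849). A second, dimmer Mbl2 probe set fell too, by 0.41 at 516.2 mg/kg (adjusted p = 0.013) and by 0.53 at 1032.5 mg/kg (adjusted p = 0.0011). Mbl1, the other rat mannose-binding lectin, was not called at the top dose (change 0.10, 95% interval -0.10 to 0.30).

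Masp1 encodes a protease that travels with these lectins and is cut when they bind. Its vehicle arrays ran 10.56, 10.91 and 10.98 (lowest, median, highest). They were set against 10.41, 10.62 and 10.63 at 64.6 mg/kg and 10.35, 10.62 and 10.70 at 129.2 mg/kg, which were not called. At 258.1 mg/kg the arrays read 10.52, 10.50 and 10.27, at 516.2 mg/kg 10.45, 10.39 and 10.43 and at 1032.5 mg/kg 10.46, 10.25 and 10.20. Each of these 3 doses lay wholly below the vehicle range. Masp1 fell by 0.43 at 258.1 mg/kg (adjusted p = 0.0253), by 0.44 at 516.2 mg/kg (adjusted p = 0.0135) and by 0.56 at 1032.5 mg/kg (adjusted p = 0.00142). At 258.1 mg/kg the call was lost without replicate 1 (adjusted p = 0.059) or replicate 3 of the dose (0.201), and without vehicle replicate 1 (0.0563) or 5 (0.0524). The call at 516.2 mg/kg was lost without replicate 1 or 3 of the dose (adjusted p = 0.0568 and 0.0521). The Masp1 result rests on 1 of 3 probe sets. The other 2, near 6.96 and 7.12 in the vehicle group, gave 0.10 (adjusted p = 0.774) and -0.16 (adjusted p = 0.505) at the top dose, and the mean of all 3 was not called there (adjusted p = 0.13). Masp2, the protease that cleaves C4 and C2 after lectin binding, lay above its vehicle mean at 1032.5 mg/kg without being called (change 0.25, adjusted p = 0.234, 95% interval 0.02 to 0.48).

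C1s and C1r are the protease pair of the C1 complex, which antibodies engage. C1s read 12.95, 13.23 and 13.34 in the vehicle group (lowest, median, highest). Its arrays read 13.04, 13.22 and 13.44 at 64.6 mg/kg, 13.23, 13.16 and 13.19 at 129.2 mg/kg and 13.002, 13.18 and 12.87 at 258.1 mg/kg. The 2 highest doses read 12.96, 12.52 and 12.97 and then 12.77, 12.65 and 12.67. The top dose lay wholly below the vehicle range, while 516.2 mg/kg overlapped it. C1s fell by 0.39 at 516.2 mg/kg (adjusted p = 0.0394) and by 0.51 at 1032.5 mg/kg (SE 0.11, adjusted p = 0.00557), the latter 1.43-fold. The call at 516.2 mg/kg was lost in 7 of the 9 fits that left out 1 array, with the highest adjusted p, 0.179, without replicate 2 of that dose. C1r had changes of similar size, -0.36 and -0.35, but a wider error, and was not called (adjusted p = 0.139 and 0.172).

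C3, the protein on which all complement routes converge, was called by no test. It read 14.85 ± 0.01 (SD, n = 6) in the vehicle group and means of 14.86, 14.85, 14.82, 14.85 and 14.83 from the lowest to the highest dose. At 1032.5 mg/kg its arrays read 14.86, 14.83 and 14.79, a change of -0.02 with a 95% interval of -0.13 to 0.09 (adjusted p = 0.904). Its signal lay near the top of the range of the arrays: 8 tested probe sets had a higher mean, and the highest signal on any array was 15.35. Whether a change is compressed at such signals was not tested. C5, which is cut to start the pore, changed by -0.27 at the top dose without being called (adjusted p = 0.149). The 4 probe sets that C2 and Cfb share gave top-dose changes of -0.21 to 0.05 and none was called (adjusted p from 0.4 to 0.923). Both genes encode the protease part of a C3-cleaving enzyme, and these probe sets do not separate them.

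Of the 5 genes of the membrane pore 3 fell at 1032.5 mg/kg, all of them chains of C8, against 4.14% of all genes. At 516.2 mg/kg 0 were called, and 2 had an unadjusted p under 0.05, as 27% of all genes did. C8 is built from an alpha, a beta and a gamma chain, each from its own gene. C8a read 12.69, 12.74 and 12.78 in the vehicle group (lowest, median, highest). At 64.6 mg/kg its arrays read 12.80, 12.997 and 12.91, all above the vehicle range but not called (change 0.17, adjusted p = 0.575). They read 12.73, 12.51 and 12.73 at 129.2 mg/kg, 12.62, 12.47 and 12.44 at 258.1 mg/kg, 12.58, 12.45 and 12.56 at 516.2 mg/kg and 12.57, 12.41 and 12.31 at 1032.5 mg/kg. The last 3 doses lay wholly below the vehicle range. C8a fell by 0.30 at 1032.5 mg/kg (SE 0.07, adjusted p = 0.0164), or 1.24-fold, and lost the call without replicate 2 or 3 of that dose (adjusted p = 0.076 and 0.123).

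C8b went from 13.35 ± 0.05 (SD, n = 6) in the vehicle group through 13.36, 13.28, 13.16, 13.23 and 13.08 over the doses. Its top-dose arrays read 13.25, 12.998 and 13.01, and 1 of them lay within the vehicle range of 13.24 to 13.40. C8b fell by 0.26 there (adjusted p = 0.0202), a call lost without replicate 2 or 3 of the dose (adjusted p = 0.14 and 0.117). C8g went from 13.29 ± 0.07 (SD, n = 6) through 13.28, 13.26, 13.22, 13.17 and 13.05, and its top-dose arrays at 13.13, 13.04 and 12.99 lay wholly below the vehicle range. C8g fell by 0.24 (adjusted p = 0.0464), and 8 of the 9 fits that left out 1 array lost that call, with adjusted p up to 0.186.

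C6 joins C5b early in pore assembly, and it varied more between arrays than any other member. Its vehicle arrays ran from 8.96 to 10.59, with a mean of 10.002 ± 0.59 (SD, n = 6), and the dose means were 9.84, 9.56, 9.44, 8.90 and 9.03. The changes of -1.10 at 516.2 mg/kg and -0.97 at 1032.5 mg/kg were the largest of all members, yet the arrays overlapped the vehicle range and neither was called (adjusted p = 0.0541 and 0.0944). The slope over all 21 arrays was called, -0.22 per dose step (adjusted p = 0.00762). C9, which forms the ring of the pore, was not called (change -0.04 at the top dose, 95% interval -0.22 to 0.13).

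**Figure D3:**
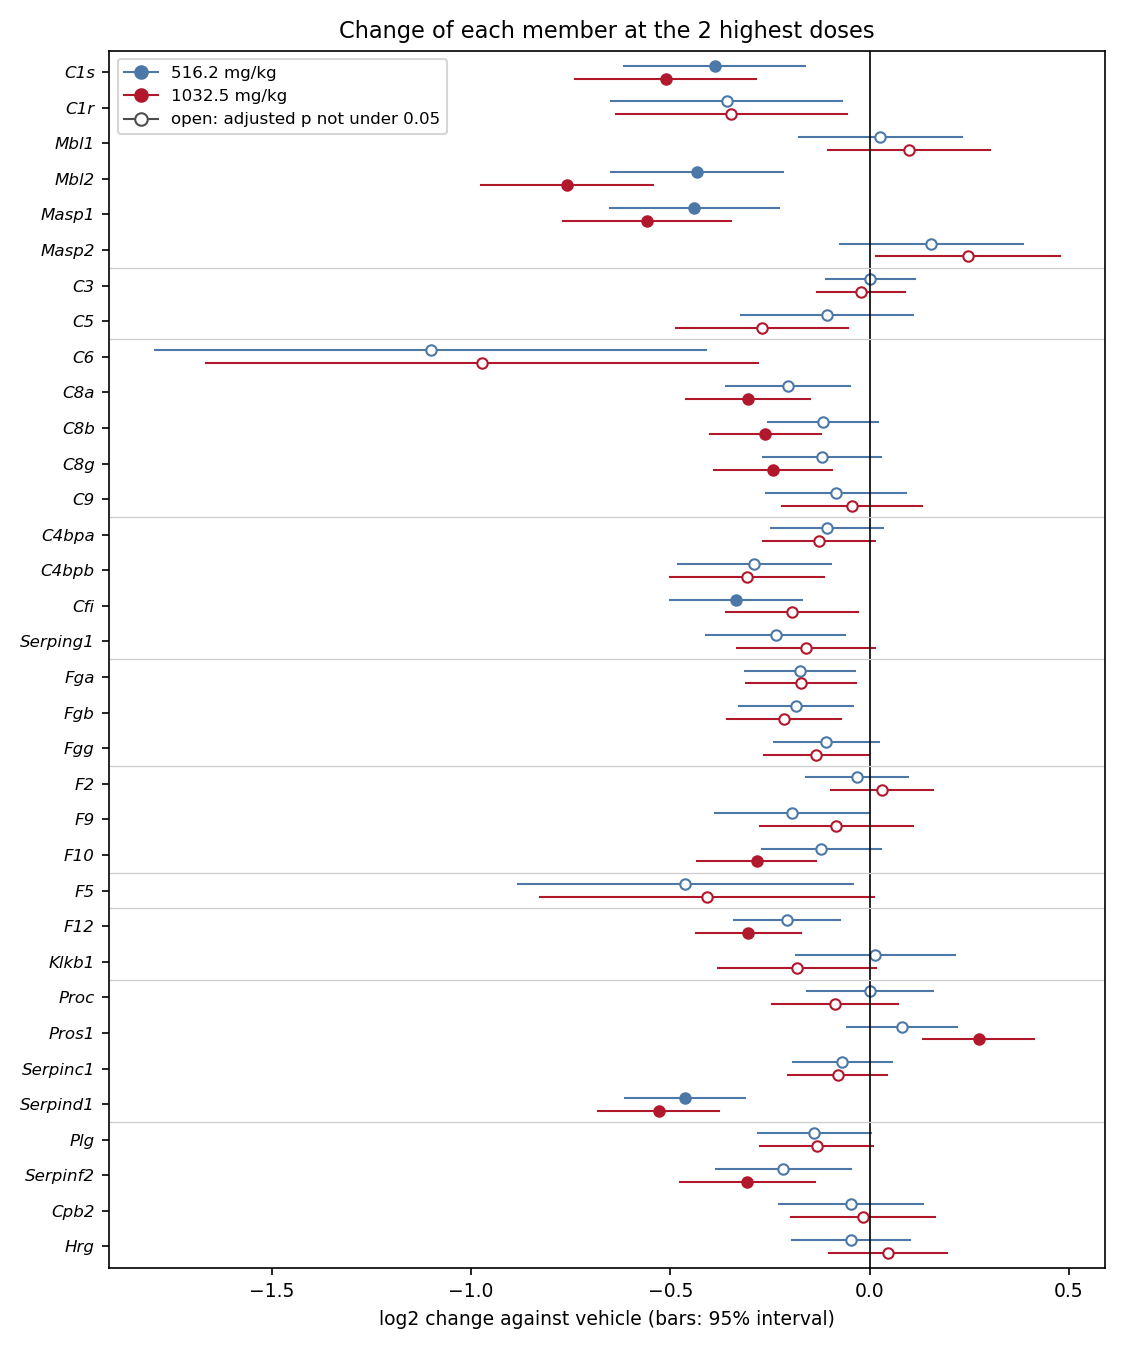
Log2 change against vehicle of the 34 genes at 516.2 mg/kg (blue) and 1032.5 mg/kg (red), with 95% intervals from limma; filled points have an adjusted p under 0.05. Filled points lie left of 0 for Mbl2, Masp1, C1s, Serpind1 and the C8 chains, and to the right for Pros1 alone, while C6 has the widest intervals.

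Of the 4 regulators of complement 1 fell at 516.2 mg/kg, against 2.64% of all genes. At 1032.5 mg/kg 0 were called, and 2 had an unadjusted p under 0.05, as 23.3% of all genes did. Cfi encodes factor I, the protease that inactivates C3b and C4b. It read 13.42, 13.59 and 13.69 in the vehicle group (lowest, median, highest), and the dose means were 13.64, 13.53, 13.43, 13.25 and 13.39. Its arrays at 516.2 mg/kg read 13.17, 13.31 and 13.26, all below the vehicle range, and at 1032.5 mg/kg 13.51, 13.41 and 13.24, which overlapped it. Cfi fell by 0.33 at 516.2 mg/kg (adjusted p = 0.0157), a call lost without replicate 1 or 3 of that dose (adjusted p = 0.108 and 0.055), and was -0.19 at 1032.5 mg/kg (adjusted p = 0.178). C4bpb, a chain of the C4b-binding protein that also carries protein S in human plasma, went from 13.03 ± 0.16 (SD, n = 6) through 12.89, 12.86, 12.75, 12.74 and 12.72, with an uncalled change of -0.31 at the top dose (adjusted p = 0.0535). Serping1, the inhibitor of C1r, C1s and contact proteases, went from 13.57 ± 0.10 (SD, n = 6) through 13.62, 13.56, 13.46, 13.33 and 13.41. The slopes over all arrays were called for Cfi, C4bpb and Serping1 (adjusted p = 0.00796, 0.0054 and 0.039). C4bpa, the other chain, was not called (change -0.13, adjusted p = 0.348).

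Fibrinogen, the precursor of the clot, has 3 chains, and by their brightest probe sets 0 of them were called at any dose, while all 3 had an unadjusted p under 0.05 at 1032.5 mg/kg, as 23.3% of all genes did. Fga went from 14.70 ± 0.10 (SD, n = 6) through 14.57, 14.60, 14.57, 14.52 and 14.52, with a top-dose change of -0.17 (adjusted p = 0.151). Fgb went from 14.58 ± 0.11 (SD, n = 6) through 14.50, 14.47, 14.48, 14.40 and 14.37, with a top-dose change of -0.22 (adjusted p = 0.0693). Fgg changed by -0.13 (adjusted p = 0.273). Slopes over all arrays were called for Fga and Fgb (adjusted p = 0.0467 and 0.0158) and not for Fgg (adjusted p = 0.151).

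A dimmer Fga probe set behaved differently from the brightest. Its vehicle arrays ran 12.48, 12.65 and 13.49 (lowest, median, highest). Vehicle replicates 5 and 6 read 13.18 and 13.49, and the other vehicle arrays 12.48 to 12.72. The same arrays were also the highest of the vehicle group for Fga, Fgb and Fgg by their brightest probe sets. Its arrays read 12.13, 12.11 and 12.42 at 64.6 mg/kg, 12.21, 12.05 and 12.15 at 516.2 mg/kg and 11.96, 11.43 and 11.78 at 1032.5 mg/kg. Every array of all 5 doses lay below the vehicle range. The signal fell by 0.69 at 516.2 mg/kg (adjusted p = 0.0274) and by 1.10 at 1032.5 mg/kg (SE 0.18, adjusted p = 0.000543), or 2.14-fold, where the brightest Fga probe set changed by -0.17. Among the dosed arrays alone its slope was not called (adjusted p = 0.0963). Fits without 1 array at a time were not run for this probe set. Which Fga transcripts each probe set reads was not analysed here.

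**Figure D4:**
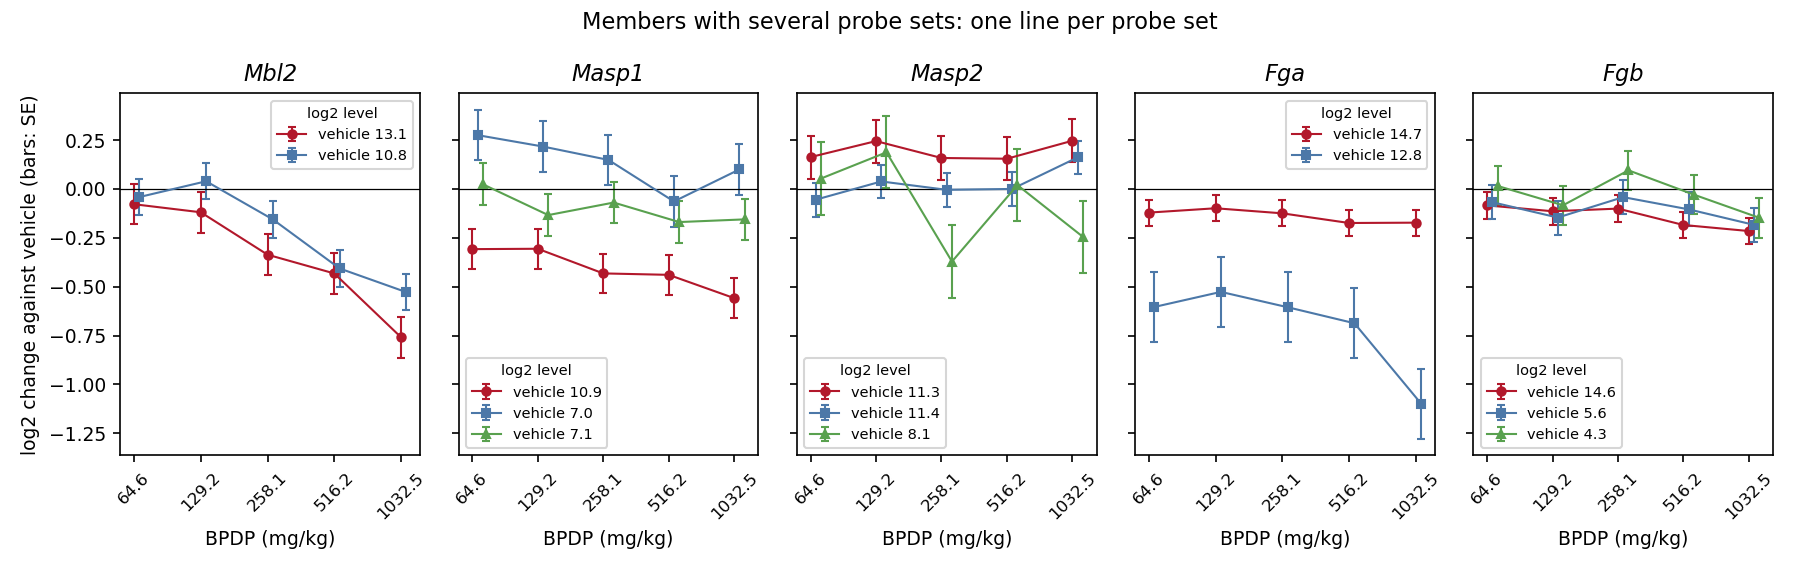
Log2 change against vehicle at each dose in mg/kg for the 5 genes with several probe sets, 1 line per probe set with its vehicle log2 level in the legend; bars are limma's SE. The Mbl2 lines run together, reaching -0.53 and -0.76, whereas for Masp1 and Fga only 1 line reaches -0.56 and -1.10.

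Among the vitamin K-dependent clotting factors 1 of 3 fell at 1032.5 mg/kg, against 4.14% of all genes. At 516.2 mg/kg 0 were called, and 1 had an unadjusted p under 0.05, as 27% of all genes did. F10 encodes factor X, the enzyme that converts prothrombin. It read 12.74, 12.77 and 12.83 in the vehicle group (lowest, median, highest), and the dose means were 12.72, 12.69, 12.57, 12.65 and 12.49. Its top-dose arrays read 12.64, 12.41 and 12.43, all below the vehicle range, a fall of 0.28 (SE 0.07, adjusted p = 0.0198) or 1.22-fold. Without replicate 2 or 3 of that dose the call was lost (adjusted p = 0.132 and 0.102). F2, prothrombin, was not called (change 0.03, 95% interval -0.10 to 0.16), and F9, factor IX, was not either (change -0.08, 95% interval -0.28 to 0.11). F5, the cofactor of factor X, went from 10.93 ± 0.34 (SD, n = 6) through 10.49, 10.43, 10.30, 10.47 and 10.53. Its top-dose change of -0.41 was not called (SE 0.20, adjusted p = 0.299), and the top-dose arrays at 10.64, 10.43 and 10.50 overlapped the vehicle range.

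F12 encodes factor XII, which starts clotting on foreign surfaces. Its vehicle arrays ran 13.39, 13.45 and 13.46 (lowest, median, highest). Its arrays read 13.54, 13.39 and 13.53 at 64.6 mg/kg, 13.32, 13.37 and 13.39 at 129.2 mg/kg and 13.29, 13.29 and 13.15 at 258.1 mg/kg. They read 13.22, 13.25 and 13.23 at 516.2 mg/kg and 13.25, 13.11 and 13.05 at 1032.5 mg/kg. From 129.2 mg/kg on, every dose lay wholly below the vehicle range. At 129.2 mg/kg the margin was narrow, with a highest array of 13.3885 against a lowest vehicle array of 13.392. The change there was -0.08 and not called (adjusted p = 0.895). F12 fell by 0.30 at 1032.5 mg/kg (SE 0.06, adjusted p = 0.00468), or 1.23-fold, and was -0.21 at 516.2 mg/kg (adjusted p = 0.059). The top-dose call was lost with the replicate number as a block (adjusted p = 0.0509). Klkb1, plasma prekallikrein, which factor XII activates, was not called (change -0.18, adjusted p = 0.338). The probe set that Kng1 shares was not called at any dose, with changes of 0.25 at 64.6 mg/kg and -0.01 at 1032.5 mg/kg, although the moderated F over the 5 doses was called (adjusted p = 0.027).

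Of the 4 anticoagulant genes 1 fell and 1 rose at 1032.5 mg/kg, against 4.14% and 4.81% of all genes. The rise was the only called one among the members. Serpind1 encodes heparin cofactor II, a thrombin inhibitor. Its vehicle arrays ran 13.29, 13.44 and 13.59 (lowest, median, highest). Its arrays read 13.35, 13.39 and 13.41 at 64.6 mg/kg and 13.29, 13.15 and 13.25 at 129.2 mg/kg. The changes at these doses, -0.06 and -0.21, were not called (adjusted p = 0.912 and 0.389). At the higher doses the means went lower still. They read 13.02, 13.04 and 13.03 at 258.1 mg/kg, 12.96, 13.02 and 12.96 at 516.2 mg/kg and 13.06, 12.87 and 12.81 at 1032.5 mg/kg. All 9 arrays of the 3 highest doses lay below the vehicle range and below all arrays of the 2 lowest doses. Serpind1 fell by 0.41 at 258.1 mg/kg (adjusted p = 0.00356), by 0.46 at 516.2 mg/kg (adjusted p = 0.000677) and by 0.53 at 1032.5 mg/kg (SE 0.07, adjusted p = 9.23e-05), to 69.3% of the vehicle level. None of the 3 calls was lost when any 1 array was left out.

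Pros1 encodes protein S, the cofactor of activated protein C. Its vehicle arrays ran 11.65, 11.72 and 11.75 (lowest, median, highest). Its arrays read 11.67, 11.82 and 11.95 at 64.6 mg/kg, 11.88, 11.86 and 11.81 at 129.2 mg/kg and 11.90, 11.89 and 11.90 at 258.1 mg/kg. Those of 516.2 mg/kg read 11.77, 11.84 and 11.78 and those of 1032.5 mg/kg 12.04, 12.05 and 11.88. From 129.2 mg/kg on, every dose lay wholly above the vehicle range. The change was 0.13 at 129.2 mg/kg (adjusted p = 0.719) and 0.18 at 258.1 mg/kg (adjusted p = 0.206). It was 0.08 at 516.2 mg/kg (adjusted p = 0.517). Pros1 rose by 0.27 at 1032.5 mg/kg (SE 0.07, adjusted p = 0.015), or 1.21-fold. That call was lost without replicate 1 or 2 of the dose (adjusted p = 0.0767 and 0.101). Proc, protein C itself, was not called (change -0.09, 95% interval -0.24 to 0.07). Serpinc1, antithrombin, was not called either (change -0.08, 95% interval -0.20 to 0.04).

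Of the 4 genes of clot dissolution 1 fell at 1032.5 mg/kg, against 4.14% of all genes. Serpinf2 encodes alpha-2-antiplasmin, the inhibitor of plasmin. It read 12.94, 13.08 and 13.20 in the vehicle group (lowest, median, highest), and the dose means were 13.22, 12.93, 12.85, 12.86 and 12.77. The top-dose arrays at 12.83, 12.74 and 12.75 lay wholly below the vehicle range, a fall of 0.31 (SE 0.08, adjusted p = 0.0266) or 1.24-fold. The call was lost in 5 of the 9 fits that left out 1 array, with adjusted p up to 0.118. Plg, plasminogen, Cpb2, which slows clot dissolution, and Hrg, a plasminogen-binding glycoprotein, were not called, with top-dose changes of -0.13, -0.02 and 0.05.

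**Figure D5:**
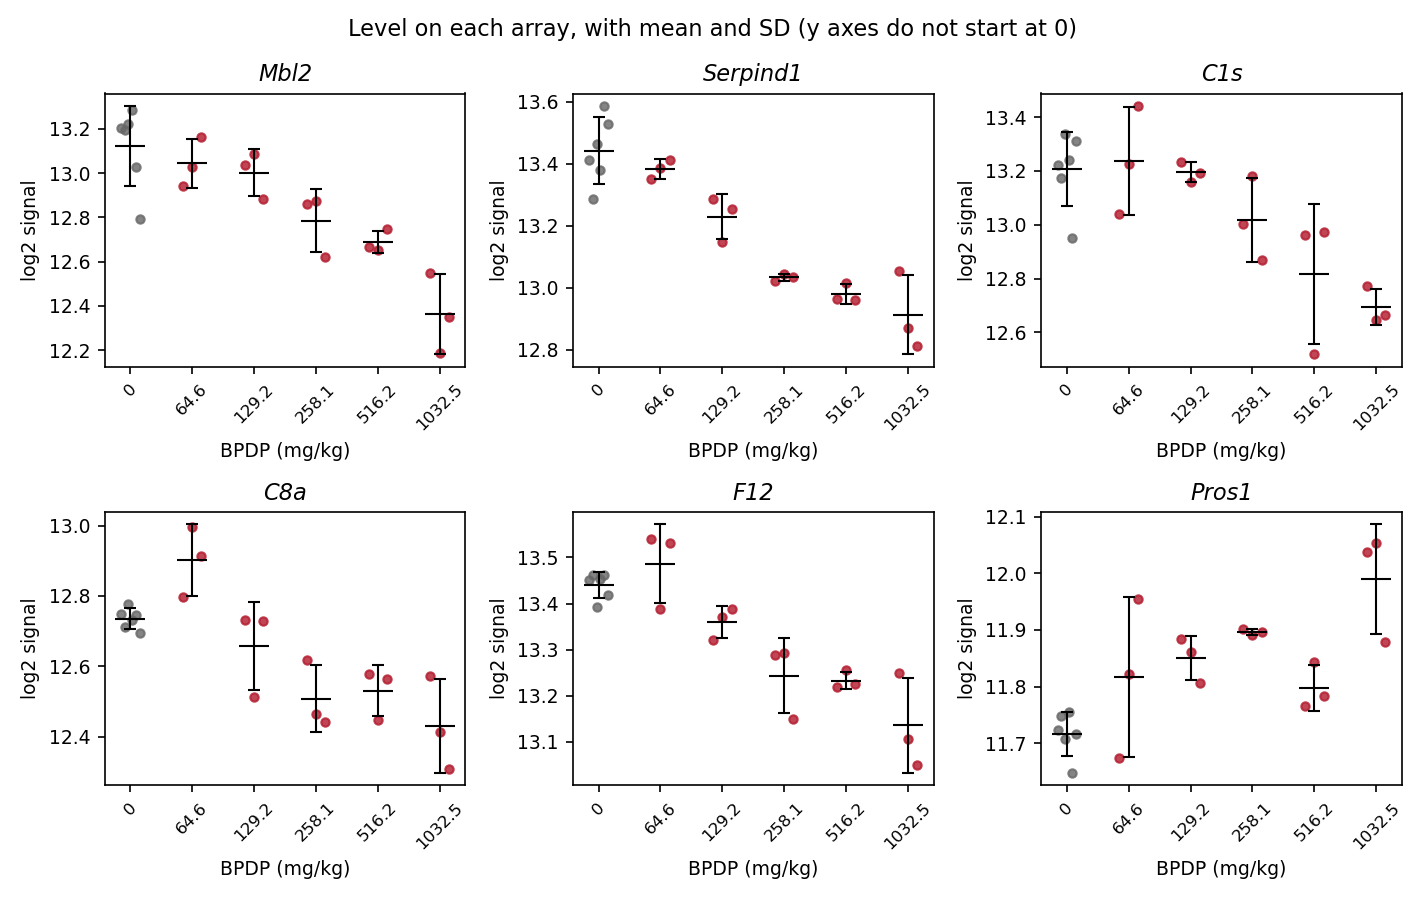
Log2 signal of 6 genes on each array (points; grey for vehicle, red for dosed) against the dose of BPDP in mg/kg, with the group mean and SD; the y axes do not start at 0. The Serpind1 mean goes lower with each dose, by -0.06, -0.21, -0.41, -0.46 and -0.53 against vehicle. Mbl2 goes lowest at 1032.5 mg/kg, and Pros1 lies above its vehicle arrays from 129.2 mg/kg on.

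Setting the doses against each other removes the vehicle arrays from the comparison. Among the 15 dosed arrays the slope per dose step was called for 6 members, all falling: C1s, Mbl2, C8a, F12, Serpind1 and Serpinf2. Of all genes 1.13% had a called falling slope among these arrays and of the bright genes 2.66%. The slopes were -0.17 for Mbl2 (adjusted p = 0.000993), -0.15 for C1s (adjusted p = 0.00697) and -0.12 for Serpind1 (adjusted p = 0.0016). They were -0.11 for C8a (adjusted p = 0.0195), -0.08 for F12 (adjusted p = 0.0199) and -0.10 for Serpinf2 (adjusted p = 0.0418). The direct comparison of 1032.5 with 64.6 mg/kg called these 6 as well, where 0.872% of all genes fell. There Mbl2 was lower by 0.68 (adjusted p = 0.00417), C1s by 0.54 (0.0324), Serpind1 and C8a by 0.47 each (0.00451 and 0.00584), Serpinf2 by 0.44 (0.0167) and F12 by 0.35 (0.0154). Both counts were 3 without replicate 3 of 64.6 mg/kg or replicate 3 of 1032.5 mg/kg, and the direct comparison also without replicate 2 of 1032.5 mg/kg. Masp1 and Pros1, called against the vehicle, had no called slope there (adjusted p = 0.199 and 0.537). With the vehicle arrays included, 16 members had a called falling slope and 1, Pros1, a rising one, against 6.25% and 8.76% of all genes. The moderated F over the 5 doses called 7 members, against 6.71% of all genes. Of the bright genes 9.79% had a called falling slope over all arrays and 16.8% a rising one. By any of these tests 17 members were called and 17 never were. The 17 called were those with a called slope over all arrays. The share of all genes called by any of these tests was not counted, so that total has no background of its own.

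Among other genes of both cascades, 32 measured of 44 listed, the called ones split in direction. At 1032.5 mg/kg 4 rose and 3 fell, against 4.81% and 4.14% of all genes. At 516.2 mg/kg 4 rose and 2 fell, against 6.30% and 2.64%. Below the vehicle mean lay 25 of the 32 at 516.2 mg/kg (median change -0.16) and 22 at 1032.5 mg/kg (median change -0.13). Fcna, ficolin A, a sugar-binding starter of complement that macrophages make in mouse, fell by 0.89 at 1032.5 mg/kg (adjusted p = 0.0014). Colec11, another complement-starting lectin, fell by 0.58 (adjusted p = 0.0111). Serpina5, the inhibitor of activated protein C, rose by 0.72 (adjusted p = 0.0104). Cd46, a membrane protein that protects cells from complement, rose by 0.65 (adjusted p = 0.00278) from a low vehicle level of 5.62. The other called genes, named after their values were seen, were Cr1l and Clu, which rose, and Cpn1, which fell. Cr1l is a membrane regulator of complement in rodents and clusterin a soluble one.

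The vitamin K cycle supplies the reduced vitamin that clotting factors need. Of its 5 measured genes 2 rose at 1032.5 mg/kg, against 4.81% of all genes. These were Nqo1, a quinone reductase, by 0.76 (adjusted p = 0.00413) and Vkorc1l1, a relative of the vitamin K epoxide reductase, by 0.60 (adjusted p = 0.00622). Vkorc1, the main epoxide reductase, and Ggcx, the carboxylase, were not called (changes -0.28 and -0.13). Of 11 liver transcription factors known to act on these genes, Nr0b2 alone was called at 1032.5 mg/kg, where 8.95% of all genes were called. It rose there by 1.90 (adjusted p = 0.000746). Nr0b2 is the small heterodimer partner, a repressor that bile acid signalling induces. It had already risen at 64.6 mg/kg, by 1.74 (adjusted p = 0.0171). It rose by 1.47 at 258.1 mg/kg (adjusted p = 0.0164) and by 1.56 at 516.2 mg/kg (adjusted p = 0.00628), and at 129.2 mg/kg its change of 1.25 was not called (adjusted p = 0.133). Among the dosed arrays its slope was not called (adjusted p = 0.734). A link between Nr0b2 and the members' changes was not tested. Hnf4a and Cebpa were not called (changes -0.09 and 0.37).

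Of 19 acute phase genes, which the liver induces in inflammation, 4 fell at 1032.5 mg/kg and 0 rose. Of all genes 4.14% fell there and 4.81% rose, and of the bright genes 7.60% fell. The 4 were A2m (change -2.13, adjusted p = 0.0441), Apcs (-0.38, 0.00441), Itih3 (-0.25, 0.0205) and Itih4 (-0.24, 0.0329). The A2m vehicle arrays spread from 9.28 to 12.66.

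The signals of marker lists of liver cell types were summed on each array, and these sums were not tested. The log2 of the summed signal of 11 hepatocyte markers ran from 17.78 to 17.85 in the vehicle group and from 17.71 to 17.75 at 1032.5 mg/kg, where 1 fell. That of 10 Kupffer cell markers ran from 13.30 to 13.79 and then 13.06 to 13.26, where 3 fell and 1 rose. For 12 stellate cell markers the range was 12.06 to 12.65 in the vehicle group, 11.45 to 11.996 at 516.2 mg/kg, where 7 fell, and 11.68 to 11.92 at 1032.5 mg/kg, where 4 fell. For 8 endothelial markers it was 12.01 to 12.82 and then 12.18 to 12.36 at the top dose, where 1 fell. For 9 lymphocyte markers it was 9.20 to 9.61 and then 9.01 to 9.17, where 1 fell and Cd3d was dim in every group. For 6 neutrophil markers it was 8.09 to 9.91 and then 7.90 to 8.0003, where 0 were called by limma and S100a8 and Cxcr2 were dim. Of these 6 markers 2 had an unadjusted p under 0.05 at the top dose, as 23.3% of all genes did. Of all genes 4.14% fell and 4.81% rose at 1032.5 mg/kg, and 2.64% fell at 516.2 mg/kg. Of the bright genes 7.60% fell at 1032.5 mg/kg and 4.00% at 516.2 mg/kg. At the top dose the summed signal of every list but the endothelial one lay wholly below its vehicle range. The part of these shifts in the members' changes was not tested. The control transcripts' signal at the 5′ end minus that at the 3′ end, a measure of RNA integrity, averaged -1.95 ± 0.29 in the vehicle group and -1.54 ± 0.37 at 1032.5 mg/kg. At 64.6, 129.2, 258.1 and 516.2 mg/kg this measure averaged -1.97 ± 0.26, -1.73 ± 0.24, -2.03 ± 0.93 and -2.30 ± 0.64. It thus did not move in 1 direction with dose, and its arrays at 258.1 mg/kg ran from -3.10 to -1.35. With this measure as a covariate C8g and Serpinf2 lost their calls at the top dose (adjusted p = 0.0871 and 0.0562).

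Promoters are shown for the members with the largest called top-dose changes that the RefSeq table holds, and for 2 members that carry motifs of liver factors. The table, of build GRCr8, held 26 of the 34 members, and Serpind1, C1s and C8g are not among them. Each line gives the 250 bases before the annotated gene start, 5′ to 3′ on the gene's strand, with matched motifs in capitals. The motifs searched on both strands were GTTAAT for HNF1, CAAAGT for HNF4, TTGCG for C/EBP, CTGGGAA for the interleukin-6 response element and CACGTG for the E-box, none of which contains another.
Mbl2: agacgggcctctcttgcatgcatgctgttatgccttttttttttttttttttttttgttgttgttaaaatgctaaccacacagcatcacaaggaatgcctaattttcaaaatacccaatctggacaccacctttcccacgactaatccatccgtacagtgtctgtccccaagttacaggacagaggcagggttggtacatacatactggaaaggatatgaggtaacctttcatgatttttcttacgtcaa
Masp1: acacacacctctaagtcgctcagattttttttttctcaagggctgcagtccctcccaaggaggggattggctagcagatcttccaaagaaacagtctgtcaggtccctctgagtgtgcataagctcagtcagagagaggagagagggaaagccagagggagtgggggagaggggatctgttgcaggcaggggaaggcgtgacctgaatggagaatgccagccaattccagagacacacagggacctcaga
Serpinf2: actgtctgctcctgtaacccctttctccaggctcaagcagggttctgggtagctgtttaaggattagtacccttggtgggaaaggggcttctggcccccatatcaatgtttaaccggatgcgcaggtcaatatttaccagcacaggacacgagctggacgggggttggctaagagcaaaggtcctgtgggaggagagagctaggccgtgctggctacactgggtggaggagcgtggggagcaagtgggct
C8a: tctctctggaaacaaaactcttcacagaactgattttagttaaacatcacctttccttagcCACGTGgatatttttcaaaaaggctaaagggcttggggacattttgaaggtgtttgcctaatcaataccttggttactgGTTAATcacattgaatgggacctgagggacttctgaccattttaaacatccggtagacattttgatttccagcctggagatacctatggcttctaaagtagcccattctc
Fgb: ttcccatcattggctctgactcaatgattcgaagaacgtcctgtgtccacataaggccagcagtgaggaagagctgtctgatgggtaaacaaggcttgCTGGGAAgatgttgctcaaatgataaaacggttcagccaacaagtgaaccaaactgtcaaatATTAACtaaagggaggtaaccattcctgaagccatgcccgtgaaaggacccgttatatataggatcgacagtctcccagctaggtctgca
The Mbl2 window lies at chr1:237430793-237431042 on the plus strand, that of Masp1 at chr11:90839472-90839721 on the plus strand and that of Serpinf2 at chr10:60778783-60779032 on the minus strand. None of these 3 windows holds a motif searched. C8a, at chr5:124866632-124866881 on the minus strand, holds an HNF1 motif 110 bases and an E-box 189 bases before the gene start. Fgb, at chr2:170700876-170701125 on the minus strand, holds an HNF1 motif at 90 bases, on the opposite strand, and an interleukin-6 response element at 152 bases. C8a and Fgb were chosen after their values were seen. The HNF1 letters stood in 9 of the 26 members' windows (34.6%) and in 6.46% of all 33365 windows. The interleukin-6 element stood in 8 (30.8%) against 9.56%, the C/EBP letters in 5 (19.2%) against 14.98%, the HNF4 letters in 2 (7.69%) against 12.9% and the E-box in 1 (3.85%) against 5.60%. Of the members called at 1032.5 mg/kg that have a window, C8a alone held the HNF1 letters. A match of letters is a description and does not show that a factor binds there.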

How the data were processed

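Rat liver RNA was amplified from 100 ng, biotin-labelled and hybridised to 21 Affymetrix rat arrays. The authors deposited a log2 signal for each probe set, made with RMA per the submitters' processing notes, and these signals were used unchanged. Control probe sets (57) were left out, and 31042 were tested. The platform annotation names 1 gene for 20826 of them, several for 436 and none for 9780; symbols were updated through the Entrez identifier against RefSeq GRCr8 for 20758. Each gene is given by its brightest probe set, judged by the mean of the 21 arrays, out of those that name no other gene.

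limma 3.58.1 in R 4.3.3 fitted all 21 arrays with a coefficient per group, and slopes on the dose step (0 to 5) over all arrays or the 15 dosed ones. P-values are two-sided, adjusted over the 31042 probe sets by the Benjamini-Hochberg method, with a threshold of 0.05. The fit was tested on simulated data. Members called by any test, and the brightest member of a role without one, were named, with up to 4 called genes of each other list. The members and lists were chosen with earlier results of these data known. Alternatives were scaling, a filter on dim probe sets, the variance model, the samples fitted, the replicate number as a block, an RNA integrity covariate, probe sets averaged per gene, and fits without 1 array at a time. The number of arrays limits the precision. The labels name no batch.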

Additional observations from a re-analysis of the deposited data

Results flagged for a closer look

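Among 48 sets of 6 vehicle values examined, 1 per probe set or summary, 2 held an array far from the other 5, and chance marks about 5% of such sets. Masp1, the lectin-associated protease that fell at the 3 highest doses, read 10.56 on vehicle replicate 3, while the other vehicle arrays lay between 10.86 and 10.98. The gap made up 0.713 of the range, above Dixon's critical value for 6 arrays. Masp2, the related protease, read 11.05 on vehicle replicate 1, while the others lay between 11.32 and 11.47 (ratio 0.639).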

How the results depend on the processing

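Of 74 recomputed counts and mean changes with no array left out, 68 stayed within 1.5 times the reported count or within the spread between arrays. The members called at 258.1 mg/kg numbered 1 instead of 2 with only the compared groups fitted or with probe sets averaged per gene. At 516.2 mg/kg cyclic loess called 8 instead of 5, and the mean change of the members, -0.19 as reported, was -0.22 with cyclic loess and -0.14 with each array's median subtracted. With the replicate number as a block, 6 members instead of 11 were called at 1032.5 mg/kg and 4 at 516.2 mg/kg. C8a, C8b, C8g, F10, F12 and Pros1 lost their top-dose call, so the 6 include a member not called above. Vehicle replicates 4, 5 and 6 share their number with no dosed array, so the block fitted them exactly and they added nothing. The deviations of arrays with the same number had r of -0.28 to 0.39, with medians of 0.05, 0.06 and -0.03 for the numbers 1 to 3, so the numbers were not taken as pairs. As a hint from the data and not the design, 10 of 18 arrays correlated best with an array of their own number. The numbers 1 to 3 are equally common among the arrays compared, so part of such matches comes by chance. The count of 10 was not tested. With only the compared groups fitted, C8b, C8g and F10 lost their top-dose call and C1s its call at 516.2 mg/kg. With each array's median subtracted, C8g lost its top-dose call and C1s its call at 516.2 mg/kg. Another Masp1 probe set changed sign, to 0.10 at 1032.5 mg/kg and 0.15 at 258.1 mg/kg. The cause of these shifts was not tested. Leaving out 1 array at a time gave 0 to 0 calls at 64.6 and 129.2 mg/kg, 1 to 3 at 258.1 mg/kg, 1 to 6 at 516.2 mg/kg and 5 to 12 at 1032.5 mg/kg. It gave 3 to 6 for 1032.5 against 64.6 mg/kg, 14 to 19 for the slope over all arrays, 3 to 6 for the slope over the dosed arrays and 5 to 9 for the moderated F. C1s, Mbl2 and Serpind1 kept their call at 1032.5 mg/kg under every alternative run, and F12 under all but the block (adjusted p = 0.0509). Alternatives for single members at 258.1 and 516.2 mg/kg, and the split by level below, were added after seeing the data.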

Other observations

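The called members were not spread evenly over signal level. Of the 13 brightest members, with vehicle means of 13.57 to 14.85, among them C3, F2, Plg, Serpinc1, Hrg and the 3 fibrinogen chains, 0 were called by limma at 1032.5 mg/kg, and their median log2 change was -0.13. Of the other 21, with vehicle means up to 13.44, 11 were called, with a median of -0.30. Of all genes 8.95% were called at 1032.5 mg/kg. The share of all genes called at these signal levels was not counted, so neither count has a background at its own level. Whether 0 of 13 is unusual for such bright genes was thus not tested. Signals of different probe sets do not rank transcript amounts. The dividing level was chosen after the values were seen, and the difference between both sets was not tested.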
